A study of Mus musculus with 14 samples.

Results

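Chemokines and their receptors were followed as 1 gene family across cultured mouse lymphoma lines and lymphomas grown in mice. Members were taken by gene symbol: every Ccl, Cxcl, Cx3c, Xcl1, Xcr1, Ccr, Cxcr and Ackr gene and Ccrl2. The rule found 62 of the 46959 genes in the count table, made up of 39 ligands, 18 signalling receptors and 5 atypical receptors. Eµ-Myc mice carry a Myc transgene driven by the immunoglobulin heavy chain enhancer, which is active in B-lineage cells, and they develop B cell lymphoma.

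The series held 14 RNA-seq libraries. Of these, 12 were cell lines, each from 1 transgenic Eµ-MycTg/+ mouse, kept untreated for 24 h in medium with 0.37 mM L-asparagine, and named here by the number of the mouse. The remaining 2 were lymph node B cell lymphomas in wild-type C57BL/6 mice given cells of line 506. From day 7, 1 recipient received vehicle (0.9% NaCl) and 1 received ASNase (L-asparaginase, which hydrolyses asparagine) until disease endpoint. All libraries carry the genotype label WT, and the age of the mice was not given. The lymphomas were RNA from whole tissue, so host cells are included, and both descend from 1 line. Each line is 1 library, so the spread between lines joins differences between mice with technical error, and the vehicle and ASNase lymphomas have no replicate.

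Per line, 24597230 to 32614751 reads were counted, against 27715832 for the vehicle lymphoma and 25690935 for the ASNase lymphoma. Levels below are counts per 1e+06 counts (CPM) after scaling by the trimmed mean of M values (TMM), and 3 counts correspond to 0.0897 to 0.124 CPM. The 9 B cell markers had counts in all libraries, except Ms4a1 in line 504, with a summed level of 2298 to 3688 CPM in the lines, 4192 CPM in the vehicle lymphoma and 3168 CPM in the ASNase lymphoma. Among markers of other cells, the summed NK cell and eosinophil and basophil levels of the lymphomas lay inside the range of the lines, as did the T cell sum under ASNase, whereas macrophage and stroma markers lay far above it. The tops of those ranges were mostly Klrb1c (32.2 of 32.4 CPM) and Cd2 (108 of 109 CPM) in line 309 and Il5ra (9.15 of 9.40 CPM) in line 524. Line medians were 0.437, 21.9 and 2.43 CPM for NK cells, T cells, and eosinophils and basophils. Ncr1, Klrk1, Gzma, Gzmb, Cd3e and Cd4 had no count in any line and counts in both lymphomas. Macrophage and monocyte markers summed to 2.84 to 64.6 CPM in the lines, 379 CPM in the vehicle lymphoma and 770 CPM in the ASNase lymphoma, with C1qa and C1qb without a count in any line. Fibroblast and reticular stroma markers summed to 0 to 2.94 CPM in the lines, 861 CPM under vehicle and 2230 CPM under ASNase, with Pdgfra, Dcn, Pdpn and Postn without a count in any line.

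Chemokines are small secreted proteins that bind seven-pass, G protein-coupled receptors and steer the movement of leukocytes. Homeostatic chemokines position lymphocytes within lymphoid organs: CCL19 and CCL21 act through CCR7, CXCL12 through CXCR4 and CXCL13 through CXCR5. Inflammatory chemokines are induced during immune responses and recruit monocytes, granulocytes and effector lymphocytes, whereas atypical receptors bind and remove or transport chemokines without G protein signalling.

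The family is divided by the spacing of its first conserved cysteines, which the following coding stretches show for the chemokine markers of these tissues and for 1 ligand of each class. Each stretch holds 36 bases, 5′ to 3′, from the GENCODE M21 transcripts on GRCm38, and capitals mark the codons of the first cysteines of the mature motif. Ccl21a and Ccl5 are of the CC class, with adjacent cysteines, Cxcl12 is of the CXC class, Cx3cl1 of the CX3C class and Xcl1 of the C class.
Ccl21a: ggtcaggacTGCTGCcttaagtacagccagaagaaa
Ccl5: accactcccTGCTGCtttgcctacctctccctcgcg
Cxcl12: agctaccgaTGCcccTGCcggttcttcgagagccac
Cx3cl1: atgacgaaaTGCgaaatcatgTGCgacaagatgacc
Xcl1: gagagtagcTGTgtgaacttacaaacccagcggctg

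The cultured cells carried mainly receptor RNA, and the lymphomas carried ligand RNA as well. At 1 CPM or more, 1 to 4 ligands were present per line, 21 under vehicle and 15 under ASNase. Receptors at that level numbered 2 to 7 per line, 10 under vehicle and 6 under ASNase. In the lines, Cxcr4 and Ccr7 alone made up 55.4% to 96.0% of the summed CPM of all members, a share of reads that also depends on transcript length. Their share was 48.1% under vehicle and 56.7% under ASNase. Summed ligand CPM was 1.86 to 58.5 in 11 lines and 232 in line 524, beside 188 under vehicle and 117 under ASNase. Line 524 is thus the 1 line above both lymphomas, and it is described separately below.

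**Figure D1:**
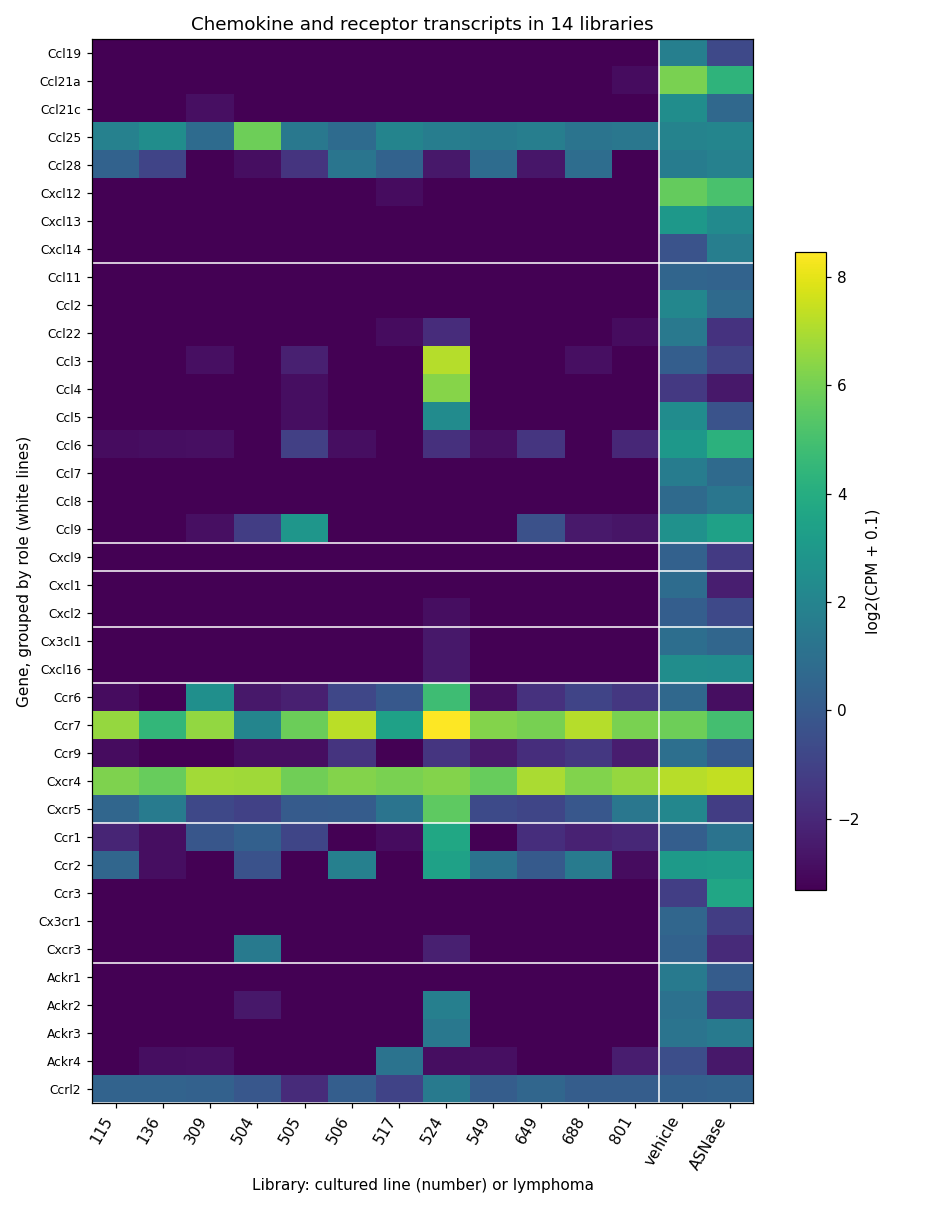
Heat map of members with at least 1 CPM in any library, with genes in rows grouped by role (white lines), the 12 lines and 2 lymphomas in columns, and colour giving log2 of CPM plus a small offset. Most ligand rows are dark in the 12 lines and lit in both lymphomas; exceptions include Ccl25, which is present in every line, and Ccl3 and Ccl4, which reach 143 CPM and 79.4 CPM in line 524. Cxcr4 is high in all 14 columns.

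The first comparison set the 2 lymphomas against the 12 lines, with edgeR's quasi-likelihood test and Benjamini-Hochberg (BH) adjustment over 17450 genes at a threshold of 0.05. Of the 62 members, 45 were tested, 22 were called higher in the lymphomas, 0 lower and 23 neither. Over all genes tested, 24.5% were called, 13.4% higher and 11.1% lower in the lymphomas. Scaling by total counts instead of TMM changed the split over all genes to 16.9% higher and 5.4% lower. No member was lower at an unadjusted p under 0.05 or by DESeq2 either. Of the 22, 10 had no count in any line (Ackr1, Ccl11, Ccl19, Ccl2, Ccl7, Ccl8, Ccr3, Cx3cr1, Cxcl13 and Cxcl14) and 6 had 1 to 3 counts over all lines. These passed the filter on low counts only through the lymphomas and had to differ, so the number called is not read as support. Their levels are given below without a p.

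The remaining 17 members were not tested. No library held a count of Ccl20, Ccl21b, Ccl26, Ccl27b, Cxcl11, Cxcl15 or Cxcr1, and the other 10 had few counts. By role, 6 of 9 tested homeostatic ligands, 6 of 11 inflammatory CC ligands, 0 of 2 interferon-inducible CXC ligands (1 at an unadjusted p under 0.05, 0 by DESeq2), 1 of 2 neutrophil-attracting CXC ligands and 2 of 2 of the group of transmembrane and single-member ligands were called higher. Among receptors the counts were 2 of 5 homeostatic, 4 of 9 inflammatory and 1 of 5 atypical. The median log2 fold change was 8.47 over the tested homeostatic ligands and -1.17 over the tested homeostatic receptors, beside -0.01 over all genes tested. The 6 called homeostatic ligands had 0 or 1 count over all lines and had to differ. The 8.47 is the value of Cxcl14, which had no count in any line. Neither this median nor the counts by role are read as support. The test's spread comes from the lines alone, since each lymphoma is 1 library, and without the vehicle lymphoma 10 members were called (11.8% of all genes) and without the ASNase lymphoma 12 (10.7%). The 9 members called in both of those fits were Ccl21a, Ccl21c, Cxcl12, Cxcl13, Ccl6, Cxcl16, Cx3cl1, Cxcl2 and Cxcr2. DESeq2 called 11 members, beside 25.5% of all genes, with Cx3cl1 and Cxcl2 not among them and the other 7 of these 9 kept. Of the 9 members called in both fits, all but Ccl6 and Cxcr2 had 0 to 2 counts over all lines. Those passed the filter only through a lymphoma and had to differ, so their return is not read as support. In bulk RNA, more cells of a type and more RNA per cell cannot be told apart.

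The homeostatic ligands Ccl21a, Cxcl12 and Cxcl13 were nearly absent from culture and present in both lymphomas. Ccl21a (chromosome 4, 42772860 to 42773993, minus strand, GRCm38) encodes the CCR7 ligand that draws naive lymphocytes and dendritic cells into lymph nodes. It had 1 count in the 12 lines together, in line 801, against 67.4 CPM (2092 counts) in the vehicle lymphoma and 20.2 CPM (605 counts) in the ASNase lymphoma. Both lymphomas lay far above every line. The ratio to the pooled lines was 23615 under vehicle (95% exact binomial interval 4234 to 933178) and 7085 under ASNase (1267 to 280289). The width of these intervals comes from the single count in culture, and like all such intervals here they cover counting error only.

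The Ccl21 locus exists in near-identical copies, and the authors' counting can split or drop reads between them, so the division among copies is uncertain. Ccl21c, listed on the unplaced scaffold GL456350.1, had 1 count in the lines, in line 309, 5.38 CPM in the vehicle lymphoma and 1.47 CPM in the ASNase lymphoma. Ccl21b was listed at 0 in all libraries. Both Ccl21a and Ccl21c were lower under ASNase than under vehicle.

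Cxcl12 (chromosome 6, 117168535 to 117181367) encodes the CXCR4 ligand made by reticular and marrow stroma, which retains B cells and their precursors in their niches. It had 1 count in the lines, in line 517, 50.3 CPM (1562 counts) in the vehicle lymphoma and 33.1 CPM (992 counts) in the ASNase lymphoma. Both lymphomas were again above every line. Stroma markers, 0 to 2.94 CPM in sum in the lines, were far higher in both lymphomas, and their part in these ligands was not tested.

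Cxcl13 (chromosome 5, 95956951 to 95961068) encodes the CXCR5 ligand that organises B cell follicles. It had no count in any line, 7.70 CPM in the vehicle lymphoma and 4.95 CPM in the ASNase lymphoma. Taking 3 counts over the 12 lines as the floor, it was at least 899-fold higher under vehicle and at least 578-fold higher under ASNase than in culture. Per kilobase of exon, Ccl21a reached 53.0 CPM in the vehicle lymphoma and Cxcl12 6.15 CPM, and the Ccl21a value is an underestimate because its listed length sums several copies.

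Ccl25 was the 1 ligand with counts in every line. It encodes the CCR9 ligand known from thymus and small intestine, at chromosome 8, 4325210 to 4360020. The lowest line had 1.61 CPM, the median was 2.91 CPM and the highest was line 504 with 58.0 CPM, and the lymphomas had 3.77 CPM and 4.01 CPM. The lymphomas lay inside the range of the lines and did not differ by the test (log2 fold change -0.95, SE 1.41, adjusted p = 0.677 by edgeR). Among the other homeostatic ligands, Ccl28 was not called, with 0 to 2.27 CPM in the lines (highest in line 506), 2.96 CPM under vehicle and 3.58 CPM under ASNase. Ccl19, the other CCR7 ligand, had 3.25 CPM under vehicle and 0.501 CPM under ASNase, and Cxcl14 and Ccl27a stayed at 3.17 CPM or below in every library.

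**Figure D2:**
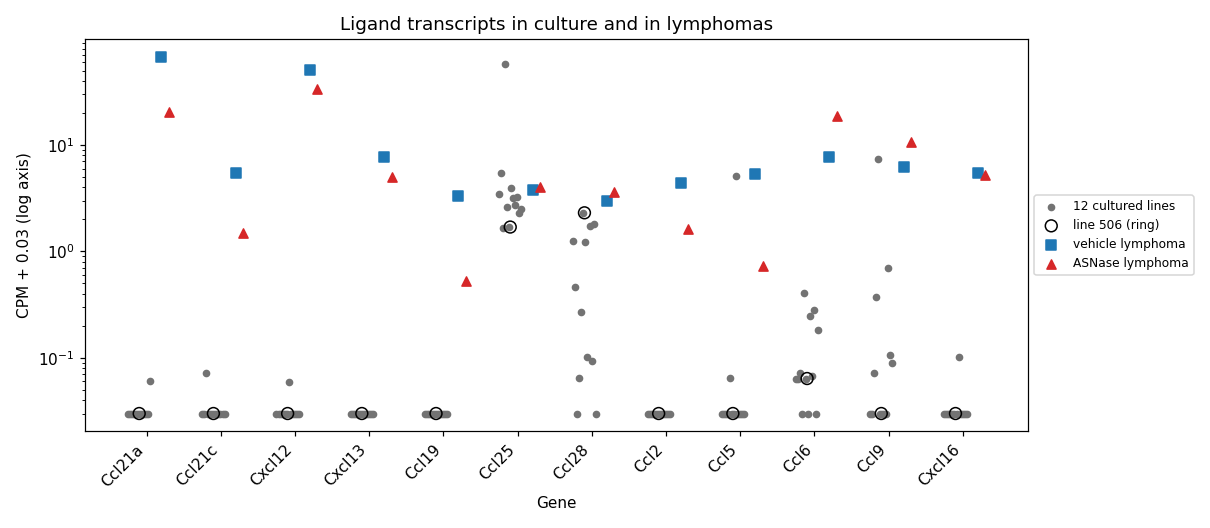
Ligand levels by library as CPM plus a small offset on a log axis, for 12 ligands on the horizontal axis. Grey points are the 12 lines, rings line 506, blue squares the vehicle lymphoma and red triangles the ASNase lymphoma; Ccl21a, Cxcl12 and Cxcl13 sit at or near the floor in culture and between 4.95 and 67.4 CPM in the lymphomas, whereas the Ccl25 values of the lymphomas lie among those of the lines.

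Inflammatory CC ligands fell into different patterns within 1 gene cluster on chromosome 11. Ccl6 (83587882 to 83593087) and its neighbour Ccl9 encode myeloid chemokines that act on CCR1. Ccl6 was 0 to 0.376 CPM in the lines with a median of 0.036 CPM, 7.70 CPM in the vehicle lymphoma and 18.8 CPM in the ASNase lymphoma. The groups did not overlap (log2 fold change 6.88, SE 1.01, adjusted p = 0.000431 by edgeR). Ccl9 was 0 to 0.665 CPM in 11 lines but 7.28 CPM in line 505, and 6.22 CPM and 10.5 CPM under vehicle and ASNase. The vehicle value lay below line 505, and the difference was not called (adjusted p = 0.214 by edgeR, 0.0377 by DESeq2). Macrophage markers, 379 CPM under vehicle and 770 CPM under ASNase in sum, moved in the direction of Ccl6 and Ccl9, and their part was not tested.

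Ccl5 encodes a chemokine made by activated T cells, NK cells and other leukocytes. It had 5.02 CPM in line 524, 0.0342 CPM in line 505 and no count in the other 10 lines, against 5.25 CPM in the vehicle lymphoma and 0.702 CPM in the ASNase lymphoma. Line 524 alone therefore overlaps the lymphomas. With it the comparison gave an adjusted p of 0.536 by edgeR (log2 fold change 2.18). Without it the log2 fold change was 8.04, but the other lines held 1 count and Ccl5 then had to differ. DESeq2 called Ccl5 higher with all lines (log2 fold change 7.57, adjusted p = 0.00944). Ccl3 and Ccl4, inflammatory ligands that attract myeloid cells and effector lymphocytes, were far higher in line 524 than anywhere else, and the lymphomas had only 1.03 CPM and 0.401 CPM of Ccl3 and 0.290 CPM and 0.0668 CPM of Ccl4. The log2 fold change of Ccl3 was -4.20 with line 524 (adjusted p = 0.579) and 5.01 without it, both by edgeR. The other lines held 5 counts of Ccl3 together. Without line 524 it passed the filter only through the lymphomas and had to differ, so no p is given. DESeq2 with all lines gave a log2 fold change of 5.25 (adjusted p = 0.0536). Its default settings can replace a single extreme count in a large group. Its values for Ccl3 and Ccl5 are therefore not read as a check apart from leaving line 524 out.

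The ligands of the neighbouring cluster, from Ccl2 to Ccl8, had no count in any line, as was so for 30 of the 62 members. They were outside the rule for described genes and are given as a block of neighbours. Ccl2 had 4.32 CPM in the vehicle and 1.60 CPM in the ASNase lymphoma, at least 504-fold and at least 187-fold above culture. Ccl7 had 3.00 CPM and 1.57 CPM, Ccl8 1.61 CPM and 2.37 CPM, and Ccl11, an eosinophil attractant, 1.32 CPM and 1.24 CPM. Ccl12 had 0.741 CPM and 0.301 CPM. Ccl22, a dendritic cell ligand of CCR4, was 0 to 0.179 CPM in the lines, 2.61 CPM in the vehicle lymphoma and 0.234 CPM in the ASNase lymphoma. Of these genes, only Ccl8 had the higher value in the ASNase lymphoma.

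Cxcl16 (chromosome 11, 70453983 to 70459984) encodes a transmembrane ligand of CXCR6. It had 2 counts over the lines, both in line 524, and 5.41 CPM and 5.21 CPM in the lymphomas. Its exons overlap those of Zmynd15 on the opposite strand, and whether the counting used strand is not given in the sources used here. Cx3cl1, the membrane-bound fractalkine, likewise had 2 counts over the lines, against 1.80 CPM and 1.37 CPM. For both genes the 2 lymphomas were nearly alike. The interferon-inducible ligands Cxcl9 and Cxcl10, which call in T cells through CXCR3, stayed at 1.16 CPM or less in every library and were not called (adjusted p = 0.0527 and 0.703 by edgeR). The neutrophil attractants Cxcl1, Cxcl2, Cxcl3 and Cxcl5 stayed at 1.67 CPM or less.

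Among the homeostatic receptors, Cxcr4 was the most uniform and Ccr7 the most variable of the 2 abundant ones. Cxcr4 (chromosome 1, 128588199 to 128592293, minus strand) encodes the CXCL12 receptor. It ran from 52.2 CPM in line 136 through a median of 75.7 CPM to 123 CPM in line 649, with a mean of 81.6 ± 23.9 CPM (SD, n = 12), and stood at 147 CPM in the vehicle and 166 CPM in the ASNase lymphoma. Both lymphomas were above every line. The log2 fold change was 0.94 (SE 0.28, adjusted p = 0.0280 by edgeR), but the call was lost without the vehicle lymphoma (adjusted p = 0.0926) and without the ASNase lymphoma (adjusted p = 0.159).

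Against its parent line 506, at 77.3 CPM, Cxcr4 was 1.91-fold higher in the vehicle lymphoma (95% exact binomial interval 1.81 to 2.01) and 2.15-fold higher in the ASNase lymphoma (2.04 to 2.26). Per kilobase it had 41.9 CPM in the median line, 81.5 CPM under vehicle and 91.7 CPM under ASNase. Ccl21a was next under vehicle at 53.0 CPM per kilobase, an underestimate, so the order of the 2 genes there is not settled.

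Ccr7 (chromosome 11, 99144196 to 99155077) encodes the receptor for CCL19 and CCL21 that guides lymphocytes to the T cell zone. It ran from 4.00 CPM in line 504 through a median of 72.4 CPM to 352 CPM in line 524, an 88.0-fold range, against a 2.36-fold range for Cxcr4. The SD over the lines was 1.76 for Ccr7 and 0.42 for Cxcr4 on the log2 scale, beside a median of 0.47 over all genes tested. The lymphomas, at 57.7 CPM under vehicle and 30.6 CPM under ASNase, lay inside the range of the lines and were not called (adjusted p = 0.515 by edgeR). Line 506, their parent, had 149 CPM, so Ccr7 was 0.388 times its level under vehicle (interval 0.367 to 0.410) and 0.205 times under ASNase (interval 0.191 to 0.221).

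Cxcr5, the follicle-homing receptor of B cells, was 0.380 to 2.88 CPM in 11 lines and 45.9 CPM in line 524. The vehicle lymphoma had 4.35 CPM (135 counts), above those 11 lines, and the ASNase lymphoma 0.334 CPM (10 counts), below all 12. Ccr6, the CCL20 receptor, was 28.0 CPM in line 524, 5.75 CPM in line 309 and 0 to 0.837 CPM in the other 10 lines, with 1.48 CPM under vehicle and 0.0334 CPM (1 count) under ASNase. Neither was called (adjusted p = 0.515 and 0.436 by edgeR). Ccr9, the CCL25 receptor, was called higher, from at most 0.271 CPM in culture to 1.87 CPM under vehicle and 0.902 CPM under ASNase (adjusted p = 0.0177 by edgeR), and its exons overlap 3 other genes. That call was lost without the vehicle lymphoma (adjusted p = 0.139).

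Inflammatory receptors were low in most lines. Ccr2 (chromosome 9, 124101950 to 124113557), the CCL2 receptor of inflammatory monocytes, was 0 to 3.39 CPM in 11 lines, 10.6 CPM in line 524, and 8.60 CPM and 9.12 CPM under vehicle and ASNase. The lymphomas exceeded every line but 524 and were not called (adjusted p = 0.376 by edgeR). Ccr1, a receptor for CCL3 and CCL5 on myeloid cells, was 13.0 CPM in line 524, at most 1.10 CPM in the other lines, and 1.06 CPM and 2.17 CPM in the lymphomas.

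Ccr3 (chromosome 9, 124021971 to 124031689, plus strand) encodes the eotaxin receptor best known from eosinophils and basophils. It had no count in any line, 0.354 CPM (11 counts) in the vehicle lymphoma and 12.4 CPM (370 counts) in the ASNase lymphoma. Only the ASNase lymphoma stood clear of 1 CPM, and the values were at least 41.4-fold and at least 1444-fold above culture. The edgeR call against the lines was not kept by DESeq2, and without the ASNase lymphoma Ccr3 was not tested because it fell under the filter.

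Markers of eosinophils and basophils in the lymphomas lay within the range of the lines in sum. The 8 summed to 0.449 to 9.40 CPM in the lines, 2.61 CPM under vehicle and 3.78 CPM under ASNase. Of the 8, 5 were higher under ASNase. Among these 5, Siglecf, Fcer1a and Ms4a2 had at most 1 count per lymphoma, and Prg2 had 18 and 19 counts. Epx, the eosinophil peroxidase gene, had no count in any library, Siglecf was 0 and 0.0334 CPM, Il5ra 1.58 and 2.97 CPM, and Prg2 was 0.580 and 0.635 CPM under vehicle and ASNase. Macrophage and monocyte markers were higher under ASNase in 11 of 12 and stroma markers in 8 of 10. The part of these cells in the Ccr3 value was not tested.

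Atypical receptors were low throughout, at 3.27 CPM or less. Ackr1, which carries chemokines across venular endothelium, had no count in any line and 2.77 CPM and 0.969 CPM under vehicle and ASNase. Its exons overlap Cadm3 on the same strand. Ackr3, the scavenger of CXCL12, was 2.51 CPM in line 524, 2.19 CPM under vehicle and 2.71 CPM under ASNase. Ccrl2 was the 1 atypical receptor with similar levels in culture and tissue, 0.171 to 2.80 CPM in the lines and 1.13 CPM and 1.20 CPM in the lymphomas.

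**Figure D3:**
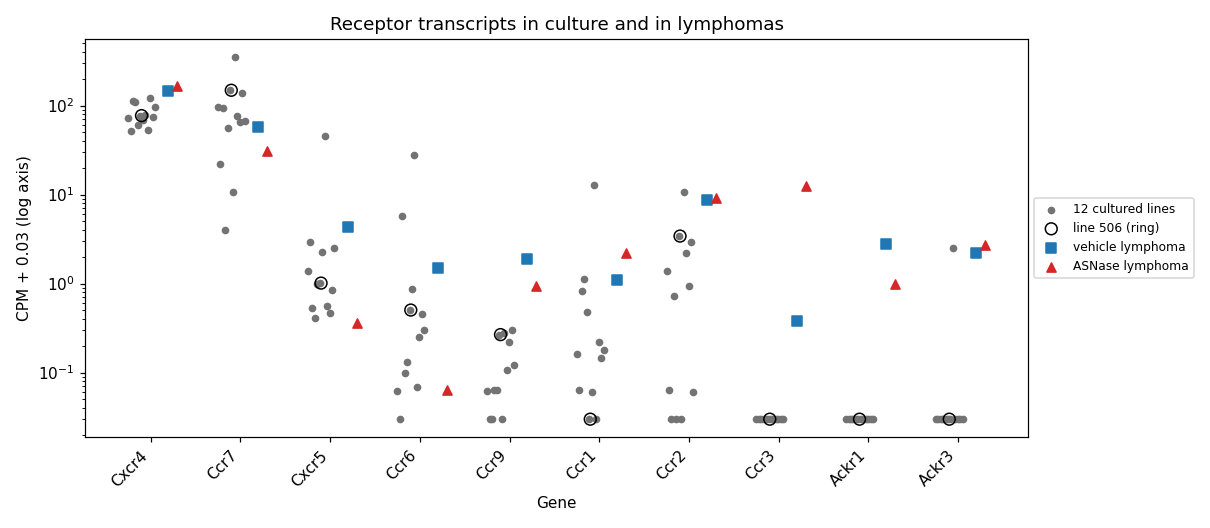
Receptor levels by library as CPM plus a small offset on a log axis, for 10 receptors on the horizontal axis, with grey points for the 12 lines, rings for line 506, blue squares for the vehicle and red triangles for the ASNase lymphoma. Cxcr4 forms a narrow band from 52.2 to 123 CPM in the lines with both lymphomas above it, Ccr7 spreads from 4.00 to 352 CPM around both lymphomas, and Ccr3 is at 12.4 CPM in the ASNase lymphoma and at the floor in all lines.

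Since both lymphomas came from line 506, they were also set against that line, with no test because each is 1 library. Members past the size rule, a log2 ratio of at least 1 in the same direction in both lymphomas with 5 CPM or more in line 506 or in both lymphomas, numbered 7, beside 20.9% of 10253 genes. Higher were Ccl21a, Cxcl12, Ccl6, Ccl9, Cxcl16 and Ccr2, and Ccr7 was lower. Over all genes 13.2% were higher and 7.66% lower. Every higher member reached the floor only through the lymphomas. Ccl21a, Cxcl12, Ccl9 and Cxcl16 had no count in line 506 and Ccl6 had 1, so these had to pass. The number past the rule is therefore not read as support. Of the members at the floor, only Cxcr4 did not pass. Total-count scaling gave 9 members, with Cxcr4 and Cxcl13 added on the higher side, and 18.3% higher and 3.16% lower over all genes. Ccl9 had no count in line 506 and was at least 61.0-fold higher under vehicle and at least 103-fold higher under ASNase, taking 3 counts in line 506 as the floor. Ccr2 was 2.53-fold higher under vehicle (interval 2.01 to 3.22) and 2.69-fold under ASNase (2.13 to 3.41), from 3.39 CPM in line 506.

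Between the vehicle and the ASNase lymphoma, 5 members reached a log2 ratio of 1 in either direction with a floor of 5 CPM in the higher library, beside 4.61% of 10561 genes. These are 2 libraries, so the values compare those tumours and not the treatments. Ccr3 and Ccl6 were higher under ASNase and Ccl21a, Ccl21c and Ccl5 lower, where 2.66% of all genes were higher and 1.95% lower. Ccr3 differed most, at 34.9-fold (95% exact binomial interval 19.3 to 70.5), and Ccl6 was 2.45-fold higher (2.10 to 2.86).

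On the lower side, Ccl21a under ASNase was 0.300 times its vehicle level (interval 0.274 to 0.329), Ccl21c 0.273 times (0.191 to 0.383) and Ccl5 0.134 times (0.0806 to 0.211). The homeostatic ligands Cxcl12, at 0.659 times (0.608 to 0.714), and Cxcl13, at 0.642 times (0.520 to 0.792), stayed within the size rule, although their intervals lie below 1. Cxcr4 was 1.12 times (1.08 to 1.17) and Ccr7 0.530 times (0.489 to 0.574). Below the floor of 5 CPM, Cxcr5 was 0.0768 times its vehicle level (0.0360 to 0.146). Tested in edgeR with the spread of the lines in place of replicates, 0 of 45 members were called and 0 had an unadjusted p under 0.05, and DESeq2 called 0. Over all 17450 genes edgeR likewise called 0, although 234 had an unadjusted p under 0.05. DESeq2 called 4 of all genes.

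Markers of host cells differed between the same libraries. T cell markers were lower under ASNase in 11 of 11, 140 CPM under vehicle and 60.1 CPM under ASNase in sum against 11.6 to 109 CPM in the lines, with Cd3e and Cd4 at 0 in every line. Endothelial markers summed to 304 CPM and 195 CPM and dendritic cell markers to 32.0 CPM and 14.2 CPM under vehicle and ASNase, with 1 of 11 and 1 of 8 higher under ASNase. NK cell markers summed to 4.73 CPM and 1.84 CPM, and neutrophil markers to 23.0 CPM and 13.3 CPM. Stroma markers were higher under ASNase in 8 of 10, opposite to Ccl21a and Cxcl12. Their part in the chemokine differences was not tested.

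**Figure D4:**
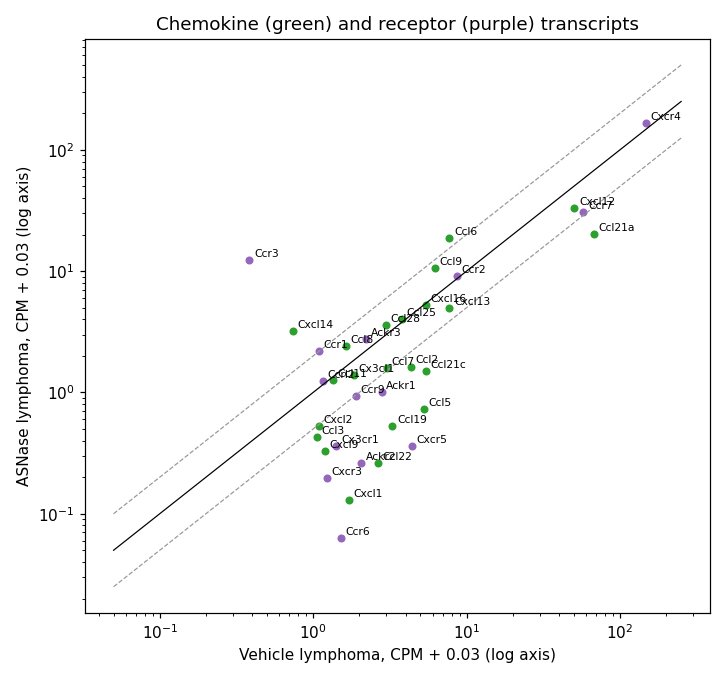
Members with at least 1 CPM in either lymphoma, plotted as their level in the vehicle lymphoma (horizontal) against the ASNase lymphoma (vertical), both as CPM plus a small offset on log axes, with ligands in green and receptors in purple. The solid line marks equality and the dashed lines a log2 ratio of 1; Ccr3 lies farthest above at 0.354 and 12.4 CPM, Ccl21a lies below at 67.4 and 20.2 CPM, and Cxcr4 lies near equality.

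Among the cultured lines, a few held members at levels not seen in the others. Each line was tested against the other 11 by edgeR, in 12 fits with BH adjustment over 15648 genes, 20 of them members. Line 524 had 6 members called higher, beside 3.97% of all genes called and 2.84% called higher, and 12 members at an unadjusted p under 0.05. Of the 6, Ccl3, Ccl4, Ccl5 and Ackr2 had 1 to 5 counts over the other 11 lines together, passed the filter on low counts only through line 524 and had to differ. Cxcr3 in line 504 and Ackr4 in line 517, with 3 and 7 counts over the other lines, stand alike. For these genes levels are given without a p, and the number called is not read as support. Nor is the number at an unadjusted p under 0.05, which has no share over all genes beside it. Line 504 had 2 called higher, beside 3.8% of all genes called and 2.83% called higher, and line 517 had 1, beside 0.147% and 0.0831%. The other 9 lines had 0 members called by edgeR or DESeq2, and an unadjusted p under 0.05 occurred for 2 members in line 505 and for 0 in the other 8. Over all genes, 0.0767% were called in each of lines 115 and 309, 0.121% in line 136, 0.0895% in line 505, 0.0192% in line 649, 0.102% in line 801 and 0% in lines 506, 549 and 688. No member was called lower in a line by edgeR, and DESeq2 called Ccr7 lower in line 504 (adjusted p = 0.00120).

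Line 524 carried the inflammatory ligands Ccl3, Ccl4 and Ccl5 together with Ccr1. Ccl3 had 143 CPM in line 524, and at most 0.103 CPM in any other line. Ccl4 had 79.4 CPM and at most 0.0342 CPM elsewhere in culture. Per kilobase, the level of Ccl3 in line 524 was 186 CPM, close to the 178 CPM of Ccr7 in the same line. Ccl5 was 5.02 CPM and Ackr2, a scavenger of inflammatory CC ligands, 3.27 CPM, against at most 0.0342 CPM and 0.0690 CPM in the other lines. Ccr1 and Cxcr5 had counts in most lines and were called higher in line 524, Ccr1 at 13.0 CPM (adjusted p = 0.0309) and Cxcr5 at 45.9 CPM (adjusted p = 0.000814), both by edgeR.

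DESeq2 kept Ccl3, Ccl4 and Cxcr5 in line 524, not Ccl5, Ccr1 or Ackr2, and also called Ccr6 (adjusted p = 0.000257). Of the 18 members with at least 1 CPM in any line, 12 had their highest level in line 524. Ackr2, Ackr3, Ccl3, Ccl4 and Ccl5 reached 1 CPM in culture only there, so they had to be highest there. No share over all genes stands beside this number, and it is not read as support. Marker sums in line 524 differed by cell type. Its macrophage markers summed to 5.81 CPM and its NK cell markers to 0.323 CPM, against line medians of 5.78 CPM and 0.437 CPM, and its neutrophil markers to 0.0718 CPM. Its T cell markers summed to 77.3 CPM, above the line median of 21.9 CPM and below the 109 CPM of line 309. Lck (38.7 CPM) and Cd2 (34.7 CPM), which had counts in every line, made up most of the 77.3 CPM. Lck, Trac (1.44 CPM), Cd5 (0.969 CPM) and Cd28 (1.54 CPM) were highest of the lines in 524. Cd3e, Cd3d, Cd3g, Cd8a, Cd8b1 and Cd4 had no count there. Eosinophil and basophil markers had their highest line sum there, 9.40 CPM against a median of 2.43 CPM, of which Il5ra made up 9.15 CPM. B cell markers also had their highest line sum there, 3688 CPM. The part of other cells in the line 524 values was not tested.

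Line 504 stood apart by Ccl25, at 58.0 CPM against a mean of 2.94 ± 1.08 CPM (SD, n = 11) in the other lines (log2 fold change 4.31, SE 0.37, adjusted p = 3.18e-05 by edgeR). It also had Cxcr3, the receptor for CXCL9 and CXCL10, at 2.73 CPM against at most 0.108 CPM elsewhere in culture. That call by edgeR was lost when line 524 was left out, and DESeq2 gave no adjusted p for it. The same line held the lowest Ccr7. Its macrophage markers had the highest sum of the lines, 64.6 CPM, of which Mrc1 made up 54.6 CPM, with C1qa, C1qb, Marco and Ms4a7 at 0. Their part was not tested. Line 517 held Ackr4, the scavenger of CCL19, CCL21 and CCL25, at 2.15 CPM against at most 0.0908 CPM in the other lines, and DESeq2 gave no adjusted p for it.

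Ligand and receptor pairs were rarely present together in culture. Of 41 listed pairs, the number with both partners at 1 CPM or more was 0 in 10 lines and 1 in line 517 (Ccl25 with Ackr4). Line 524 held Ccl3 with Ccr1 and Ccl5 with Ccr1, among others. The vehicle lymphoma held 15 pairs and the ASNase lymphoma 8. Ccl21a with Ccr7, Cxcl12 with Cxcr4, Cxcl12 with Ackr3, and Ccl2 with Ccr2 were among those present in both lymphomas. Cxcl13 with Cxcr5 and Ccl19 with Ccr7 reached the level under vehicle only, and Ccl11 with Ccr3 and Ccl28 with Ccr3 under ASNase only. A pair in bulk RNA does not tell whether 1 cell or different cells made the partners.

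Neighbouring members in the genome did not all share 1 pattern. With gaps of up to 500 kb joined, 40 of 62 members lay in 10 clusters and 22 lay alone. On chromosome 11, from 83525778 to 83664683, line 524 had Ccl3 and Ccl4 high and Ccl5 at 5.02 CPM, yet 0 counts of Ccl9 and 0.215 CPM of Ccl6 between them. Line 505 showed the reverse, with Ccl9 at 7.28 CPM and Ccl3 at 0.103 CPM. On chromosome 9, line 524 carried Ccr1 and Ccr2 with no count of Ccr3, which lies between them, whereas the ASNase lymphoma had 12.4 CPM of Ccr3.

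**Figure D5:**
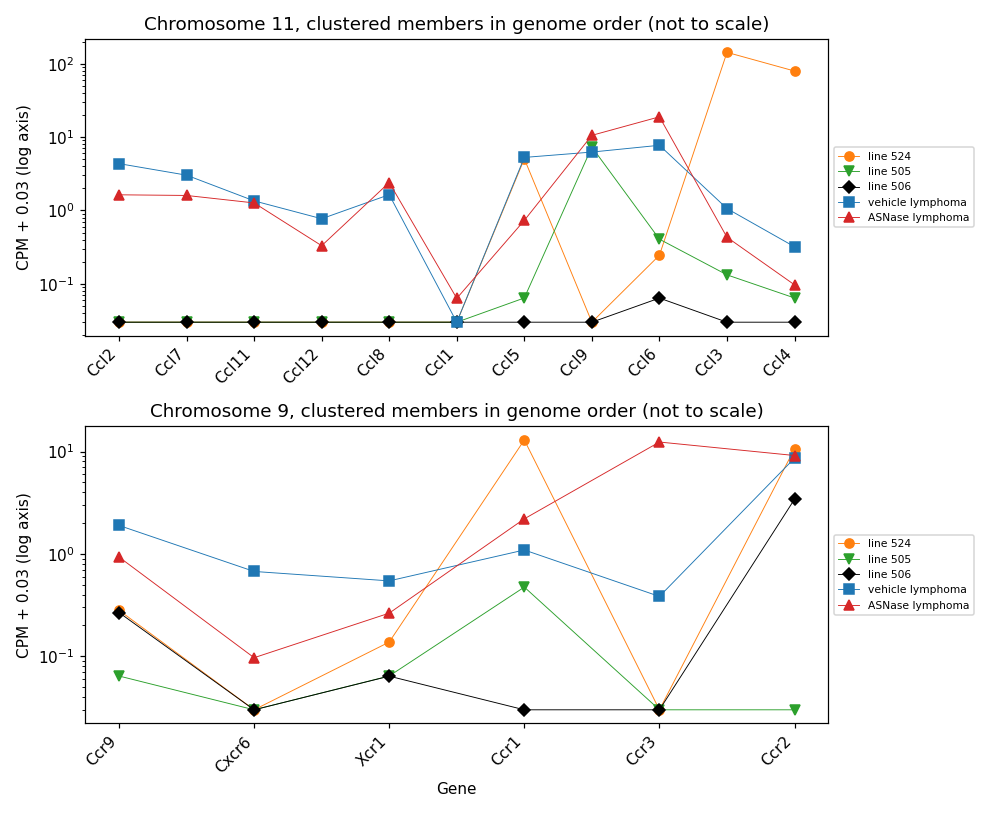
Levels along the chromosome 11 ligand clusters (top) and the chromosome 9 receptor cluster (bottom), genes in genome order and not to scale on the horizontal axis, CPM plus a small offset on a log vertical axis. Line 524 (orange) peaks at Ccl3 with 143 CPM and drops to 0 at Ccl9 and Ccr3, line 505 (green) peaks at Ccl9 with 7.28 CPM, line 506 (black) is above 1 CPM only at Ccr2, and the ASNase lymphoma (red) peaks at Ccl6 and Ccr3.

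Promoter sequence was read for the members with the highest level per length in the lymphomas, Cxcr4 and Ccl21a, and for the interferon-inducible pair Cxcl9 and Cxcl10, which the files show at low levels only. Each window is the 250 bases before the RefSeq start on GRCm38.p6, given 5′ to 3′ on the gene's strand. RefSeq windows matched 46 of 62 members. Capitals mark matches to an interferon-stimulated response element (ISRE: GAAA, any 2 bases, GAAA) or a kappa B motif (GGG, any 3 bases, TTCC). Cxcr4 lies at chr1:128592300-128592549, Ccl21a at chr4:42773992-42774241, Cxcl9 at chr5:92328080-92328329 and Cxcl10 at chr5:92348890-92349139, all on the minus strand.
Cxcr4: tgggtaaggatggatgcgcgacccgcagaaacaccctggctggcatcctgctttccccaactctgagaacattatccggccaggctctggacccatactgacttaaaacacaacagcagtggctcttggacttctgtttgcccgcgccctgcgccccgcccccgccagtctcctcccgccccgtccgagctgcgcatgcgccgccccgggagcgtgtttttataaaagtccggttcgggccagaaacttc
Ccl21a: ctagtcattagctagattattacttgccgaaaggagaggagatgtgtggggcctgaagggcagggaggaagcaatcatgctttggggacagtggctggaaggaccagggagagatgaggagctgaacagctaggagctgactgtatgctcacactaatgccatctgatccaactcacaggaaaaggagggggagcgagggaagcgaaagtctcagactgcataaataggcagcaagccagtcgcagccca
Cxcl9: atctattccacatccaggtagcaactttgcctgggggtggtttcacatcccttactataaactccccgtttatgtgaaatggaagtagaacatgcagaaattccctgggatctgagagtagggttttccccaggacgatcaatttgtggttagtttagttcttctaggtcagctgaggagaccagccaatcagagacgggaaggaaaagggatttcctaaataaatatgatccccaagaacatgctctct
Cxcl10: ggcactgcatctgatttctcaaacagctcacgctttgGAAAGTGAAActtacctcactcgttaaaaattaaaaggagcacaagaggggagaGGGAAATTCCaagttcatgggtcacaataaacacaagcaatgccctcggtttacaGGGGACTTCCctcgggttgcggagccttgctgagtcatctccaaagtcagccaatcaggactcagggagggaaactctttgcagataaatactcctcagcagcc

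The Cxcl10 window held 1 ISRE match that begins 213 bases upstream of the start and kappa B matches at 159 and 104 bases upstream. The windows of Cxcr4, Ccl21a and Cxcl9 held no match to these motifs, to the gamma-activated site (GAS: TTC, any 3 bases, GAA) or to the E-box CACGTG, the sequence that Myc and its partner Max bind. Both strands were searched and overlapping matches were kept. Among 32851 promoter windows of the same length, ISRE occurred in 2.98%, GAS in 7.02%, kappa B in 4.65% and the E-box in 6.02%. Among the 55 windows of the members, some of which have several starts, ISRE occurred in 3, GAS in 3, kappa B in 9 and the E-box in 2, of Cxcl3 and Xcr1. A match describes letters in a window and not a bound site.

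Genes downstream of the receptors were measured alongside. In a list of G proteins, kinases, arrestins and adhesion effectors of chemokine receptor signalling, 4 of 39 tested genes were called, each lower in the lymphomas. That is 10.3%, near the 11.1% lower over all genes tested, with a median log2 fold change of -0.08. Cdc42, a small GTPase of cell polarity, was lower (374 ± 53.2 CPM in the lines, SD, n = 12, against 234 and 227 CPM, adjusted p = 0.0105 by edgeR), as were Rap1a, an activator of integrins (159 ± 30.4 CPM against 76.0 and 110 CPM, adjusted p = 0.0195 by edgeR, n = 12), and Stat3 (110 ± 25.7 CPM against 73.0 and 56.2 CPM, adjusted p = 0.0345 by edgeR, n = 12).

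Among other guidance receptors and chemokine-like genes, 3 of 12 tested were higher (25%, beside 13.4% of all genes). In the same list 1 was lower (8.33%, beside 11.1%), and the median log2 fold change was 0.98. Of the 3, Rarres2 and Pf4 had no count in any line and had to differ, so the 25% is not read as support. Pf4 and Ppbp stand in this list and not among the members, which were taken by symbol. Rarres2, which encodes chemerin, had no count in any line, 5.77 CPM under vehicle and 2.84 CPM under ASNase. It passed the filter on low counts only through the lymphomas, so no p is given. Cmklr1, the chemerin receptor of macrophages and dendritic cells, was 0.162 ± 0.286 CPM (SD, n = 12) in culture, 3.61 CPM under vehicle and 5.85 CPM under ASNase (adjusted p = 0.0302 by edgeR). Mif, a cytokine that also binds CXCR4, was the lower one, from 399 ± 51.2 CPM (SD, n = 12) in the lines to 249 and 160 CPM (adjusted p = 0.000837 by edgeR).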

How the data were processed

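RNA came from 12 lines and 2 lymphomas, each 1 library of a TruSeq Stranded mRNA kit, per the labels' protocols. The authors deposited 1 table of counts per gene with gene positions and exon lengths. Reads were processed, per the submitters' processing notes, with featureCounts from Subread 1.5.0-p3 and STAR 2.4.0, with mm10 (GRCm38). Strand setting and treatment of reads with several matches: not given in the sources used here. All 14 sample columns were matched by name, with 0 left over, and 100 spike-in rows were left out (0 spike-in counts, 5 to 534 counts of phage per library).

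Counts were scaled by TMM and tested with edgeR 4.0.16 (limma 3.58.1, R 4.3.3): a quasi-likelihood test with 3 groups, genes kept by filterByExpr, BH adjustment over all genes tested and a threshold of 0.05. CPM values carry no prior count, and the log2 ratios of the size rules have a prior count of 2. Fold changes fitted by edgeR and DESeq2 kept the default settings of those tools. The residual spread came from the lines (11 degrees of freedom; 10 in the fits of 1 line against the rest). The procedure was tested on simulated data. Ratios of single libraries have exact 95% binomial intervals for counting error only, with a floor of 3 counts. DESeq2 1.42.0, total-count scaling, no low-count filter, floors of 1 and 20 CPM and left-out libraries were alternatives. DESeq2 kept its default handling of outlying counts, which can replace a single extreme count in a large group. Leaving out line 524 was added after seeing the data. Plots used Python 3.11.15 and matplotlib 3.10.9.

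Described genes were members with at least 5 CPM in any library, the markers Ccl21a, Cxcl12, Ccr3 and Ccl5, members past a size rule or called in a line, and up to 3 called genes of at least 5 CPM per pathway list; others are given by range or said to be outside it. Members, marker lists, pairs and rules were chosen with earlier results of these data known. Promoter windows are from RefSeq (GRCm38.p6). Protein sequences were not used here. 1 receptor is counted among the members but not reported here. The lines come from separate mice, but p-values involving the lymphomas assume that lymphomas vary as lines do.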

Additional observations from a re-analysis of the deposited data

How the results depend on the processing

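The number of members called between lymphomas and lines was 22 (24.5% of all genes), 11 by DESeq2 (25.5%; 9 members shared), and 10 to 28 with a library left out: 10 without the vehicle lymphoma (11.8%), 12 without the ASNase lymphoma (10.7%), 21 without line 506 (21.7%) and 28 without line 524 (28.2%). Without line 524 all 22 calls remained and Ackr3, Cxcl9, Ackr2, Ccl12, Ccl5 and Ccl3 were added. The added members had 0 to 5 counts over the remaining lines and passed the filter only through the lymphomas. They had to differ and are not read as support. The log2 fold change of Ccl3 reversed from -4.20 to 5.01 without line 524 and to 5.25 by DESeq2 with all lines. Since DESeq2 can replace a single extreme count, these settings are not read as separate checks. Members that were not called also changed sign: by DESeq2, Ccl25 from -0.95 to 0.44 and Cxcr5 from -2.03 to 0.0077, and Ccr1 from 0.19 to -0.32 without the ASNase lymphoma, with 0.71 without the vehicle lymphoma. Total-count scaling moved the median of all genes by 0.21 (log2) between lymphomas and lines and by 0.04 between the lymphomas. Members past the size rule between the lymphomas were 5, but 18 with a floor of 1 CPM (beside 7.81% of genes), 1 with a floor of 20 CPM (2.54%) and 0 in edgeR with the spread of the lines. Against line 506 they were 7, but 18 with a floor of 1 CPM (28.7%) and 3 with a floor of 20 CPM (15.9%). Calls of 1 line against the rest numbered 9, 7 by DESeq2, and 3 without line 524, among them Ccl25 in line 504 and Ackr4 in line 517. The causes were not tested. Depth limits members near 3 counts per library, about 0.1 CPM. No paired analysis was possible because each lymphoma group is 1 library, so the groups share fewer than 2 replicate numbers, and those numbers only follow accession order. Both lymphomas come from line 506 and were compared with it directly.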
